A study of Rattus norvegicus with 6 samples.

Results

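The mitophagy and mitochondrial dynamics genes are a set of 37 genes chosen by symbol from the combined table of raw read counts, which has 20264 rows. They comprise PINK1 and the enzymes that add or remove ubiquitin at mitochondria, the mitophagy receptors and cargo adaptors, the fusion and fission machinery, the outer-membrane translocase with VDAC1, the Miro transport proteins and casein kinase 2. Of the 37 genes, 36 had a row, and all 36 were among the 11426 genes that passed the filter on low counts. Rhot1 was not analysed here. The counts came from nucleus pulposus cells (NPCs), the cells of the gel-like centre of the disc, cultured from the caudal discs of male wild-type Sprague-Dawley rats. All 6 cultures received tert-butyl hydroperoxide (TBHP), an oxidant used to induce senescence, and the comparison asked what recombinant FGF21 changed in such cells. The TBHP group (n = 3) received TBHP alone and the TBHP+FGF21 group (n = 3) received both. An untreated group was not analysed here, and the labels give neither dose nor duration. The treatment labels differ within the TBHP+FGF21 group: replicate 1 carries FGF21, while replicates 2 and 3 carry FGF22 and FGF23. The titles and the series design place all 3 in a single FGF21 group, which was followed. The libraries are described as biological replicates, but the labels do not say whether the cultures came from separate animals.

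Mitophagy is the selective removal of mitochondria by autophagy. When a mitochondrion loses its membrane potential, the kinase PINK1 is no longer imported and degraded, accumulates at the outer-membrane translocase and starts the building of ubiquitin chains. The ubiquitin chains laid on the surface are then read by cargo adaptors that also bind LC3 on the forming autophagosome. A second route uses receptors that sit in the mitochondrial membranes and bind LC3 without ubiquitin. Fission by DRP1 separates mitochondria small enough to be engulfed, whereas fusion by mitofusins and OPA1 joins them. Nucleus pulposus cells live in a poorly perfused, low-oxygen tissue, and loss of mitochondrial quality is a recognised feature of their senescence. PINK1, the adaptor p62 and the receptors are controlled to a large extent after transcription, and only transcript levels were measured here.

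The 250 bases upstream of the RefSeq transcript start (GRCr8) are shown for Pink1, which initiates the ubiquitin route, Bnip3, a receptor gene, and Tomm7, the member with the lowest log2 fold change. They lie at chr5:155825951-155826200 on the minus strand (Pink1), chr1:203154963-203155212 on the minus strand (Bnip3) and chr4:12197253-12197502 on the plus strand (Tomm7). The build of the deposited counts is not given in the sources used here. Capitals mark matches to GTAAACA (a forkhead site, as bound by FOXO factors), the palindromic NRF1 site (the second capitalised run of Tomm7) and ACGTG (the core of a hypoxia element, also contained in the CACGTG E-box, where it matches on both strands), each searched on both strands.
Pink1: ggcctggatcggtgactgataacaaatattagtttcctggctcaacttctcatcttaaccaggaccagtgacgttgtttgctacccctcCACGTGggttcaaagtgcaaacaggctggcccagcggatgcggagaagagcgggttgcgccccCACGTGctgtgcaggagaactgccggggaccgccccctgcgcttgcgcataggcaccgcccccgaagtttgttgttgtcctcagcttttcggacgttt
Bnip3: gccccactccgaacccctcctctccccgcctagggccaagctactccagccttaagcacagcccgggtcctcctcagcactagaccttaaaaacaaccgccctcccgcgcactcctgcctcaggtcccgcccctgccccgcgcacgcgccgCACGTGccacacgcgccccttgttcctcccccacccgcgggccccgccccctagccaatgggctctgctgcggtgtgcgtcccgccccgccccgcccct
Tomm7: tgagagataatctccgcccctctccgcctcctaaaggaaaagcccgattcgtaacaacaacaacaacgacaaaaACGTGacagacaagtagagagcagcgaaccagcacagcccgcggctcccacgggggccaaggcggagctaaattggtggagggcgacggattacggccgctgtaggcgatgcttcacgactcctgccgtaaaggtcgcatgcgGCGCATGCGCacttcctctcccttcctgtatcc

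Such promoters were given for 32 of the 37 members. GTAAACA was found in 1 of the 32, that of Dnm1l, and in 3.25% of all 27457 promoters of the same length. The NRF1 site was found in 1 of the 32, that of Tomm7, and in 0.85% of all. ACGTG was found in 10 of the 32, those of Pink1, Bnip3 and Tomm7 included, and in 16.95% of all. For some genes, Dnm1l among them, the transcript start used lies inside the annotated gene. These matches describe letters in a window, and binding was not measured.

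The libraries held between 18277732 and 22426190 counts, and the members took between 0.349% and 0.380% of them. A member had between 199 and 25999 counts in a library, so counting error weighs most on the lowest, such as Mfn2. Replicate 2 of the TBHP+FGF21 group stood apart from its own group. Its rank correlation across all genes tested was 0.996 with each TBHP library, and 0.992 and 0.989 with replicates 1 and 3 of its group. Replicate 3 of the TBHP group was at 0.993 with replicates 1 and 2 of its group. With TBHP+FGF21 replicates 1, 2 and 3 it was at 0.994, 0.996 and 0.991. Without TBHP+FGF21 replicate 2, 867 genes of the whole table had an adjusted p under 0.05 by edgeR's quasi-likelihood test, against 1 gene with all libraries. The members are therefore also described without that library. It was singled out for its likeness to the TBHP group, so leaving it out sets the groups further apart by the choice itself. The p-values of that fit are given as description only. The labelled cell type was checked against its markers. Acan, the main disc proteoglycan, was at 2681, 2506 and 2939 CPM (counts scaled to the library size after TMM normalization) in the TBHP group and 3476, 2864 and 4355 CPM in the TBHP+FGF21 group. Of the same list, Sox9, a cartilage transcription factor, was at 6.26, 4.90 and 6.19 CPM against 7.96, 6.13 and 11.3 CPM, and Krt8 and Cd24 stayed under 5 CPM. The notochordal genes Tbxt, Shh and Noto were at 0 in every library, Krt18 had 5 counts in all, Foxa2 had 32 and Col2a1 stayed under 1 CPM. Of the 10 fibroblast and annulus markers, 9 were tested, with a summed level of 42533 to 46795 CPM in the TBHP group and 31529.7 to 44549 CPM in the TBHP+FGF21 group, most of it Col1a1. In this list Col1a2 had 72 counts in all, beside 4692995 for Col1a1, and the reason was not tested. A low count of a marker is therefore not read as its absence. Markers with an unadjusted p under 0.05 by edgeR were Acan at 0.40 and Sox9 at 0.56 on the log2 scale, and, among the fibroblast and annulus markers, Pdgfra at 0.39 and Scx at -0.39 (adjusted p = 0.553 for each, with overlapping groups). The other 3 tested genes of the list that holds Acan and Sox9 had log2 fold changes below 0. Krt8 was at -0.43 (lower without overlap), Cd24 at -0.55 and Col2a1 at -0.26, all without an unadjusted p under 0.05. The macrophage markers summed to 31.9 to 37.6 CPM in the TBHP group and 26.4 to 32.8 CPM in the TBHP+FGF21 group over the 2 of 7 that were tested, most of it Cd14 (log2 fold change -0.17, the smallest p of that list) and the rest Cd68, with Ptprc and Adgre1 at 0. No endothelial marker passed the filter, with Cdh5 and Kdr at 0. The part of these markers in the members' values was not tested. In such bulk libraries, fewer cells of a type and less RNA per cell cannot be told apart.

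None of the mitophagy and mitochondrial dynamics genes passed the test of TBHP+FGF21 against TBHP. They had an adjusted p (Benjamini-Hochberg over all genes tested) between 0.553 and 0.996 by edgeR's quasi-likelihood test. None of the 36 reached an unadjusted p under 0.05 by this test, by DESeq2 or by limma-voom. Of all genes tested, 0.00875% were called and 8.92% had an unadjusted p under 0.05 by edgeR. The called gene was Sirt1, a deacetylase gene outside the set, singled out after its values had been seen. Its TBHP counts are 32, 38 and 35 in the combined table and 92, 138 and 125 in the files of single libraries, under the identifier (ENSRNOG00000051592) whose TBHP+FGF21 counts are identical in both. Among 10254 rows with at least 100 counts in each group, it was the only such disagreement, 10244 matched an identifier in both groups, and no member was affected. The log2 fold change (TBHP+FGF21 minus TBHP) ran from -0.32 for Tomm7 to 0.16 for Rhot2. It was below 0 for 28 members and above 0 for 8, with a median of -0.079, beside 51.1% below 0 and a median of -0.0052 over all genes tested. The groups did not overlap for 4 members (11.1%), Usp15, Usp30, Tax1bp1 and Mfn2, all lower in the TBHP+FGF21 group. Over all genes, 9.90% did not overlap in either direction and 5.00% were lower and 4.90% higher without overlap.

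The precision of these values sets what could have been seen. The 95% interval of the log2 fold change held 0 for all 36 members by edgeR, and for 34 it lay within 0.5 either way, a fold of 1.41. The 2 exceptions were Tomm7 and Fundc1, whose lower bounds were -0.72 and -0.65. The highest upper bound of any member was 0.44, for Pink1, which corresponds to a fold of 1.35. For 16 members the interval lay within 0.3 either way. The median coefficient of variation of the members was 8.27% in the TBHP group and 6.64% in the TBHP+FGF21 group, beside 9.40% and 10.5% over all genes tested.

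**Figure D1:**
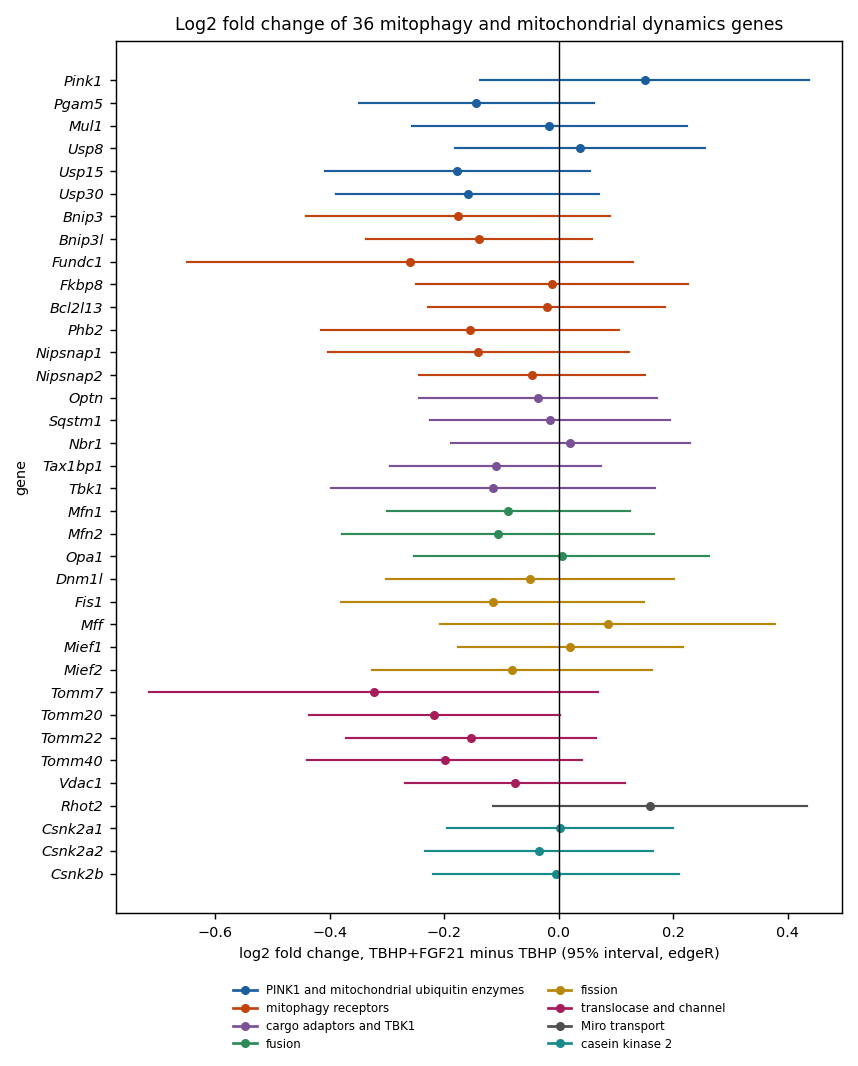
Log2 fold change (x axis, TBHP+FGF21 minus TBHP) of the 36 members tested (y axis), coloured by role, where points are edgeR estimates and bars are 95% intervals (n = 3 per group). All 36 intervals cross 0, all 8 receptors and all 5 translocase and channel genes have points below 0, and Tomm7 has the lowest point at -0.32.

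Among PINK1 and the ubiquitin enzymes, Pink1 (ENSRNOG00000015385) was at 71.7, 59.0 and 57.0 CPM in the TBHP libraries (replicates 1, 2 and 3, an order kept for every gene) and at 68.5, 57.9 and 81.7 CPM in the TBHP+FGF21 group. The highest value belonged to replicate 3 of the TBHP+FGF21 group, and the other two libraries of that group lay within the TBHP range. Its log2 fold change of 0.15 had a standard error of 0.13 and an interval of -0.14 to 0.44. Within the TBHP+FGF21 group, leaving out replicate 3 gave 0.023 and leaving out replicate 2 gave 0.27 (adjusted p = 0.167 by edgeR). The sign of Pink1 did not change in any of the 6 fits that left out a library, but these fits share most of their libraries. Usp15, a deubiquitinase that opposes mitophagy, had the smallest p of this role. It was at 23.7, 28.0 and 26.1 CPM in the TBHP group and 23.5, 22.9 and 22.5 CPM in the TBHP+FGF21 group, so that every TBHP+FGF21 library lay below every TBHP library, the nearest pair by 0.192 CPM. Its log2 fold change was -0.18 (adjusted p = 0.583 by edgeR). Usp30, the deubiquitinase anchored in the outer mitochondrial membrane, was at 29.3, 29.7 and 30.6 CPM against 27.6, 23.8 and 28.7 CPM. Here too the groups did not overlap, and the log2 fold change was -0.16 (interval -0.39 to 0.070). Usp8, a deubiquitinase, had a log2 fold change of 0.037. The value was -0.14 for Pgam5, a mitochondrial phosphatase that stabilises PINK1 and dephosphorylates FUNDC1, and -0.017 for Mul1, an outer-membrane ubiquitin ligase.

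All 8 receptor genes had a log2 fold change below 0, from -0.26 for Fundc1 to -0.012 for Fkbp8, with a median of -0.14, and none passed the test. Bnip3, a hypoxia-inducible receptor, was at 203, 206 and 166 CPM in the TBHP group and 181, 184 and 143 CPM in the TBHP+FGF21 group. In each group replicate 3 was the lowest library, and the range within each group exceeded the difference between the group means of 192 and 169.6 CPM. Bnip3l, which encodes NIX, the receptor known from the clearance of mitochondria in maturing red cells, was at 92.9, 97.8 and 87.8 CPM against 84.5, 88.8 and 79.6 CPM. It had the smallest p of the receptors, with a log2 fold change of -0.14 (adjusted p = 0.605 by edgeR, standard error 0.090). Fundc1, an outer-membrane receptor switched by phosphorylation, was at 19.6, 20.1 and 13.5 CPM against 14.5, 17.9 and 12.0 CPM. Replicate 3 of the TBHP group lay below replicates 1 and 2 of the TBHP+FGF21 group, and the log2 fold change of -0.26 had a standard error of 0.18. Phb2, an inner-membrane receptor exposed when the outer membrane ruptures, had a log2 fold change of -0.16. For Nipsnap1 and Nipsnap2, matrix proteins that are displayed on damaged mitochondria, it was -0.14 and -0.047. Bcl2l13, a BCL2-family receptor, was at 34.6 and 34.1 CPM in the TBHP and TBHP+FGF21 groups, with a log2 fold change of -0.022. Fkbp8, whose product also moves to the endoplasmic reticulum during mitophagy, was at 215 and 213 CPM.

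The cargo adaptors link ubiquitin to LC3, and TBK1 is the kinase that phosphorylates them. Sqstm1, which encodes p62, was at 1249, 1079 and 1092 CPM in the TBHP group and 1150.0, 1101 and 1133 CPM in the TBHP+FGF21 group. The values of the TBHP+FGF21 group all fell inside the TBHP range, with a log2 fold change of -0.015 and an interval of -0.22 to 0.19. Tax1bp1 had the smallest p of this role, at 116, 125 and 121 CPM against 111, 113 and 112 CPM. Its groups did not overlap and its values in the TBHP+FGF21 group were close together (112 ± 0.996 CPM, SD, n = 3), with a log2 fold change of -0.11 (adjusted p = 0.652 by edgeR, standard error 0.085). The log2 fold change was -0.037 for Optn, the optineurin adaptor of the PINK1 route, 0.020 for Nbr1, an adaptor related to p62, and -0.12 for Tbk1.

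**Figure D2:**
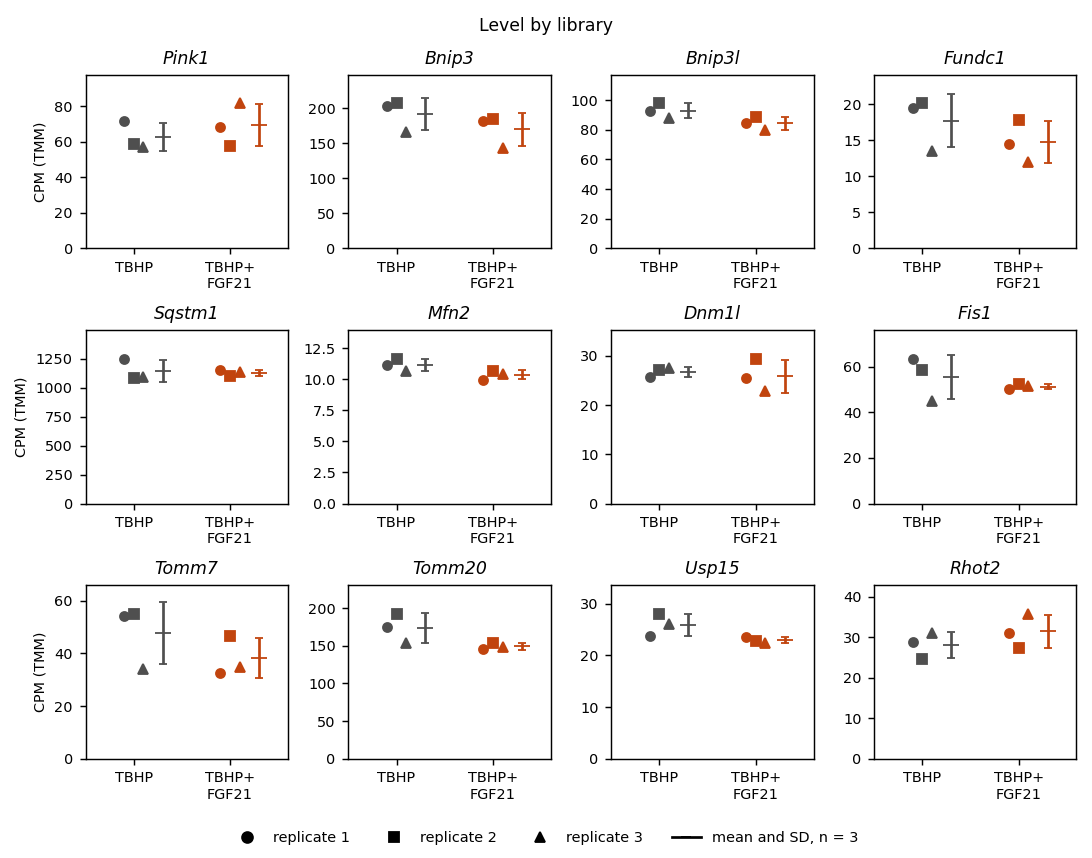
Level (y axis, CPM after TMM scaling, from 0) of 12 members in the TBHP and TBHP+FGF21 groups (x axis), where symbols are libraries by replicate and the bar beside them is the mean with SD (n = 3). Usp15 and Mfn2 are the panels without overlap, and in Tomm7 and Fundc1 replicate 3 of the TBHP group lies among the TBHP+FGF21 libraries.

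The 3 fusion genes had small fold changes. Mfn1, an outer-membrane mitofusin, was at 55.2, 65.9 and 65.7 CPM in the TBHP group and 60.1, 57.6 and 58.1 CPM in the TBHP+FGF21 group, with a log2 fold change of -0.088 (adjusted p = 0.754 by edgeR). Mfn2, the mitofusin that is phosphorylated by PINK1, was at 11.1, 11.7 and 10.7 CPM against 9.95, 10.7 and 10.5 CPM. The groups of Mfn2 did not overlap, but the nearest libraries of the groups differed by 0.0144 CPM and the interval of its log2 fold change was -0.38 to 0.17. Opa1, the inner-membrane fusion GTPase, had means of 37.3 ± 5.43 and 37.4 ± 2.64 CPM (SD, n = 3) and a log2 fold change of 0.0047.

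Of the 5 fission genes, 2 had a log2 fold change above 0 and 3 below. Dnm1l, which encodes the fission GTPase DRP1, was at 25.6, 27.2 and 27.5 CPM in the TBHP group and 25.4, 29.4 and 22.8 CPM in the TBHP+FGF21 group. The highest and the lowest of the 6 values were both in the TBHP+FGF21 group, and the log2 fold change was -0.050. Fis1, an outer-membrane fission factor, had the smallest p of this role, at 63.5, 58.4 and 44.9 CPM against 50.0, 52.2 and 51.6 CPM. All 3 values of the TBHP+FGF21 group lay between replicates 2 and 3 of the TBHP group, and the log2 fold change of -0.12 became -0.0045 without replicate 1 of the TBHP group. The DRP1 receptors gave 0.085 for Mff, 0.020 for Mief1 (which encodes MiD51) and -0.081 for Mief2 (which encodes MiD49).

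The outer-membrane translocase and channel genes had the lowest median of the roles with more than 1 gene tested. All 4 translocase genes of the set and Vdac1, the channel gene, had a log2 fold change below 0, with a median of -0.20 over the 5, and none passed the test. Of 11 further import and channel genes tested outside the set, 5 were above 0 and 6 below. Tomm20, an import receptor, had the smallest p of all members, at 175, 192 and 153 CPM in the TBHP group and 145, 154 and 148 CPM in the TBHP+FGF21 group. Replicate 3 of the TBHP group lay just below replicate 2 of the TBHP+FGF21 group, and the other values did not cross. The log2 fold change was -0.22 (interval -0.44 to 0.0012, adjusted p = 0.553 by edgeR). Tomm7, a small subunit needed to hold PINK1 at the translocase, was at 54.0, 54.9 and 34.0 CPM against 32.7, 46.7 and 34.7 CPM. Replicates 1 and 2 of the TBHP group and replicate 2 of the TBHP+FGF21 group were high, and the remaining 3 libraries lay within 2.05 CPM of each other. The log2 fold change of Tomm7 was -0.32 (adjusted p = 0.568 by edgeR, standard error 0.18). Tomm40, the import pore, had a log2 fold change of -0.20, and Tomm22, the central receptor that casein kinase 2 phosphorylates, had -0.15. Vdac1 was at 324, 319.7 and 293 CPM against 295, 298 and 295 CPM, with a log2 fold change of -0.076.

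The libraries in which Tomm7 and Fundc1 were high also differed in how their reads were assigned. The share of reads listed as ambiguous between genes was 2.04% and 2.09% for TBHP replicates 1 and 2 and 2.01% for TBHP+FGF21 replicate 2, and between 1.72% and 1.83% in the other 3 libraries. The unmapped share was between 1.34% and 1.40% in the former and between 1.24% and 1.28% in the latter. For multimapping reads, which were not counted, the share was between 6.86% and 7.02% in the former and between 6.27% and 6.64% in the latter. The part of these shares in the levels of Tomm7 and Fundc1 was not tested. RefSeq (GRCr8) lists 41 pseudogenes named after 12 of the members, of which 15 belong to Vdac1, 8 to Bnip3 and 4 to Tomm7, so the counts of these genes are uncertain to the extent that reads map to such copies. None of the 41 has a row of its own in the combined counts. The library kit is described as directional, but the deposited strand columns held 48.3% to 51.3% of a member's stranded counts in the first of the pair, so reads from overlapping antisense genes cannot be separated. Together the strand columns held between 1.00 and 1.012 times a member's unstranded counts, the most for Sqstm1, so few counted reads overlapped an annotated gene on the other strand.

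**Figure D3:**
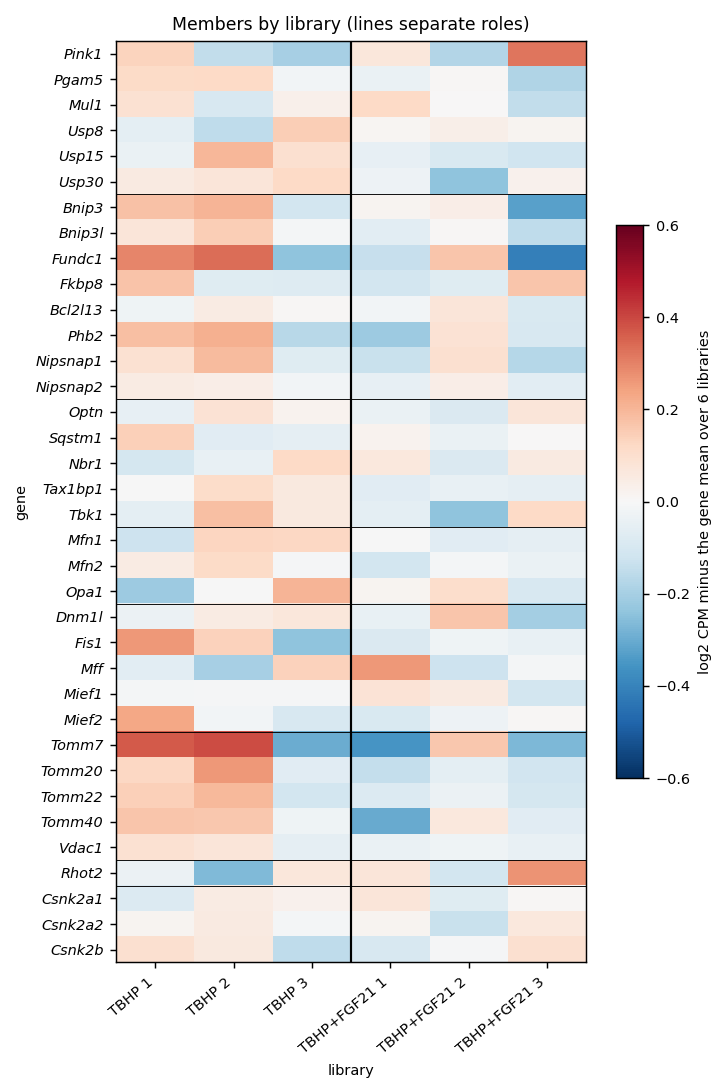
Log2 CPM of each member minus its mean over the 6 libraries (colour, log2 scale from -0.6 to 0.6), with libraries on the x axis, genes on the y axis and lines between the roles. Replicate 2 of the TBHP group holds the highest value for 15 of the 36 members and TBHP+FGF21 replicate 3 holds the lowest for 11, while Tomm7 and Fundc1 vary most within each group.

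Rhot2, which encodes the Miro GTPase that ties mitochondria to microtubule motors and is removed by the PINK1 route before engulfment, had the highest log2 fold change of the set. It was at 28.9, 24.7 and 31.0 CPM in the TBHP group and 31.2, 27.5 and 35.8 CPM in the TBHP+FGF21 group. The ranges overlapped, and the log2 fold change of 0.16 had an interval of -0.12 to 0.43 (adjusted p = 0.664 by edgeR). The casein kinase 2 genes, whose kinase phosphorylates FUNDC1 and the translocase, had a median log2 fold change of -0.0048. Csnk2a2, the catalytic subunit with the smallest p of this role, was at 60.1, 61.7 and 59.0 CPM against 60.2, 54.1 and 62.1 CPM, a log2 fold change of -0.035. It was 0.0018 for the other catalytic subunit gene, Csnk2a1, and -0.0048 for the regulatory subunit gene, Csnk2b.

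Leaving out a library moved single members but called none. Without replicate 2 of the TBHP+FGF21 group, 7.50% of all genes tested had an adjusted p under 0.05 by edgeR (3.72% lower and 3.78% higher), and 0 of the 36 members did. At an unadjusted p under 0.05 it was 5 members (13.9%), beside 23.6% of all genes tested. These were Tomm7 at -0.49 (adjusted p = 0.0692), Fundc1 at -0.41, Tomm40 at -0.28 and Tomm20 at -0.23, all lower, and Pink1 at 0.27. Without replicate 3 of the TBHP group, 6 members (16.7%) had an unadjusted p under 0.05, beside 15.3% of all genes tested, and none an adjusted one. They were Tomm7 at -0.51, Fundc1 at -0.42, Tomm20 at -0.29, Phb2 at -0.26, Fis1 at -0.24 and Tomm22 at -0.23 on the log2 scale. Both libraries left out here correlated best with a library of the other group. Leaving either out therefore sets the groups further apart, and the p-values of both fits are no support for an effect. The value of Tomm7 was -0.21 without replicate 2 of the TBHP group, its smallest size in the 6 fits. Other fits also made values smaller: without replicate 3 of the TBHP+FGF21 group Fundc1 was at -0.12 and Bnip3 at -0.060, without replicate 1 of that group Tomm40 was at -0.095, and without replicate 2 of the TBHP group Tomm20 was at -0.14. Of the 36 members, 21 had the same sign in all 6 fits, 19 of them below 0. The 2 that stayed above 0 were Pink1 and Rhot2. The 6 fits share most of their libraries, so a kept sign is not independent support for a direction. The share of all genes that kept a sign was not computed.

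**Figure D4:**
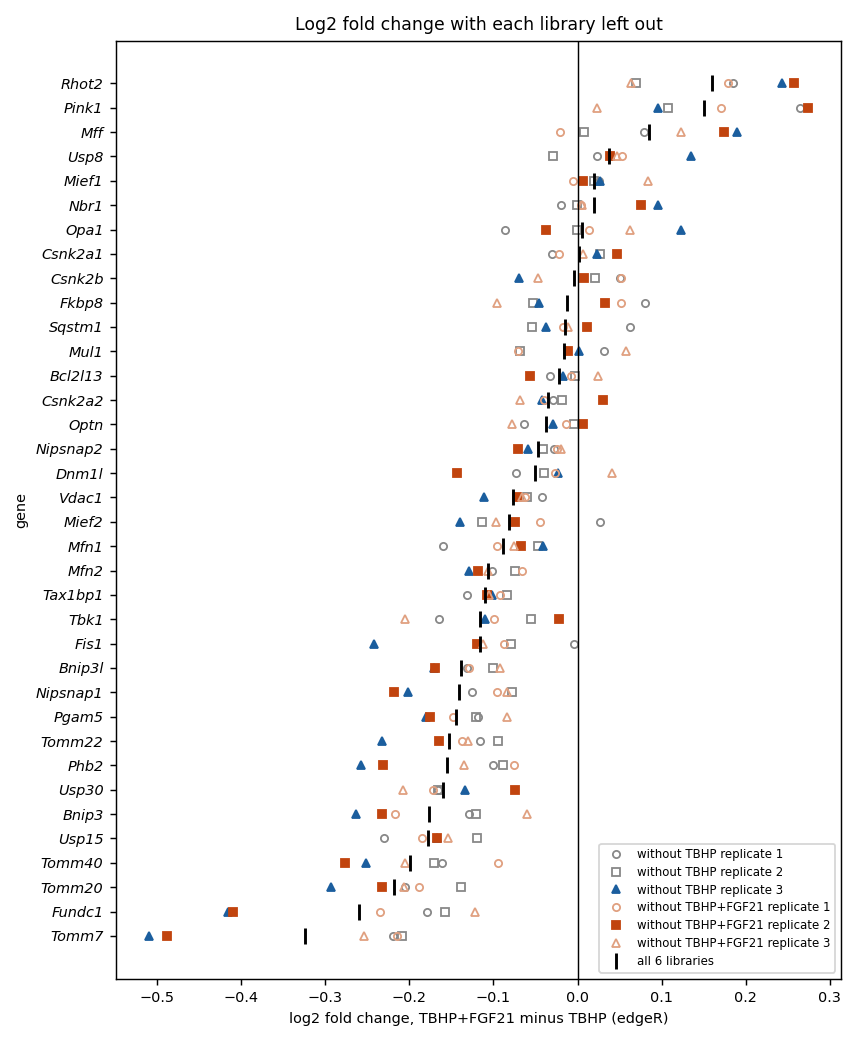
Log2 fold change (x axis, TBHP+FGF21 minus TBHP, edgeR) of each member (y axis, ordered by the value with all libraries) in the 6 fits that each left out a library (symbols) and with all 6 libraries (black bars). Tomm7 ranges from -0.51 to -0.21 and Pink1 from 0.023 to 0.27, while 15 members have symbols on both sides of 0.

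The genes around the set were read from lists compiled for this tissue and pathway. Over all genes tested, 8.92% had an unadjusted p under 0.05 by edgeR and 9.90% had groups that did not overlap. Of 21 other genes of the ubiquitin route, all 21 were tested, 9 with a log2 fold change above 0 and 12 below, and 0 had an unadjusted p under 0.05 by edgeR. The smallest p was that of Ambra1, an activator of autophagy initiation that also binds LC3, at 50.8, 44.3 and 49.4 CPM in the TBHP group and 57.7, 53.3 and 55.4 CPM in the TBHP+FGF21 group. Its groups did not overlap, with a log2 fold change of 0.20 (adjusted p = 0.553 by edgeR). Foxo3, a forkhead factor singled out after its values had been seen, was at 9.10, 8.71 and 11.8 CPM against 9.81, 11.3 and 11.5 CPM, with overlapping groups.

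All 5 genes of the LC3 and GABARAP family, to which receptors and adaptors bind, had a log2 fold change below 0, from -0.15 to -0.068, and none had an unadjusted p under 0.05 by edgeR. The smallest p was that of Gabarap, at 321, 314 and 252 CPM against 262, 269 and 269.7 CPM (adjusted p = 0.634 by edgeR). Replicate 3 of the TBHP group was the lowest of its 6 values. Of 22 genes of OPA1 processing and mitochondrial shape, 17 were tested. Of these, 2 had an unadjusted p under 0.05 by edgeR without passing the adjustment, both lower, beside 8.92% of all genes tested in either direction. Slc25a46, an outer-membrane carrier that acts in fission, was at 25.1, 28.1 and 23.5 CPM against 19.9, 22.6 and 20.0 CPM, without overlap, a log2 fold change of -0.30 (adjusted p = 0.553 by edgeR). Apool, a subunit of the cristae-organising MICOS complex, had a log2 fold change of -0.43 with overlapping groups. Yme1l1, an OPA1-processing protease, was listed at 0 in every library. As for the markers, this is not read as its absence, and the reason was not tested. Among 14 further genes of import and channels, 11 were tested, 5 with a log2 fold change above 0 and 6 below. Of these, 1, Tomm40l, a paralogue of the import pore, had an unadjusted p under 0.05. Tomm40l was at 16.0, 14.7 and 17.9 CPM against 20.0, 18.9 and 19.8 CPM, higher without overlap, a log2 fold change of 0.27 (adjusted p = 0.553 by edgeR), whereas that of Tomm40 was -0.20. The difference between these 2 genes was not tested.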

How the data were processed

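RNA-seq was analysed for 6 libraries, 3 TBHP and 3 TBHP+FGF21, grouped by title. The deposited files hold unnormalized read counts by Ensembl identifier, a file for each library, and a combined table by gene symbol. The submitters' processing notes name STAR and featureCounts, and the versions, build and annotation are not given in the sources used here. In the combined table made by the authors, 22 rows end in 0.5, so its values were treated as estimated counts and rounded up. Members were linked to identifiers by identical counts. Reads that were unmapped (1.24% to 1.40%), ambiguous (1.72% to 2.09%), multimapping (6.27% to 7.02%) or outside genes (9.13% to 10.4%) were left out.

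Counts were fitted with edgeR 4.0.16 in R 4.3.3 (TMM, filterByExpr with a minimum count of 10 and a minimum total of 15, condition as the only term, glmQLFit, glmQLFTest), and p-values were adjusted by Benjamini-Hochberg over the 11426 genes tested. Each standard error was taken as the size of the log2 fold change over the root of its F statistic, and 95% intervals use the t distribution of the fit. Levels are TMM-scaled CPM. They were not compared between genes, since transcript lengths were not used here. P-values measure the spread between these libraries, which may be technical. Alternatives were DESeq2 1.42.0, limma-voom (3.58.1), other normalization, filters and files, a replicate block and leaving out each library. The fits were tested on simulated counts. 1 gene of the other lists is not reported here. The members and lists were chosen with earlier results of these data known. All members are named, and from each other list the genes with an unadjusted p under 0.05 or else the gene with the smallest p.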

Additional observations from a re-analysis of the deposited data

How the results depend on the processing

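In every alternative run, 0 of the 36 members had an adjusted p under 0.05, and the count of members below 0 stayed between 24 and 30. Members with an unadjusted p under 0.05 by edgeR numbered 0 in the main fit and 1 (Tomm7, 2.78% beside 9.66% of all genes) without a filter. They numbered between 0 and 6 when a library was left out (beside 2.92% to 23.6% of all genes). A further fit, chosen after seeing the data, set the library labelled FGF21 alone against the TBHP group. The lone library was assumed to vary like the others. In that fit 25 of the 36 members were below 0, beside 50.3% of all genes, the lowest being Tomm7 at -0.54 and Tomm40 at -0.40. The median of the members in that fit was -0.086. With strand column 3 of all 6 libraries, the median log2 fold change of the members was -0.043, beside -0.079 in the main fit, and the cause was not tested. Over all genes, those with an adjusted p under 0.05 numbered 1 with edgeR, 4 with the DESeq2 Wald test, 0 with limma-voom and with each of the 3 columns of the per-sample files, 5 without a filter, 325 with the library labelled FGF21 alone and between 0 and 867 when a library was left out, the most without TBHP+FGF21 replicate 2. The unstranded and both strand columns gave 1082, 956 and 1049 genes with an unadjusted p under 0.05, and limma-voom 996.

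With the replicate number as a block, 2 members had an unadjusted p under 0.05, Tomm7 at -0.31 and Tomm20 at -0.21 (5.56% beside 14.0% of all genes), and 2 genes of the whole table an adjusted one. Deviations of same-numbered libraries correlated across genes at -0.12, 0.21 and 0.15 for numbers 1, 2 and 3, and not every library correlated best with its own number. Each deviation was taken from a group mean of 3 libraries, so these correlations depend on each other. They cannot decide whether same-numbered libraries are paired.

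The sign changed for members whose log2 fold change was small, giving 0.11 for Mul1, 0.017 for Sqstm1 and 0.0021 for Csnk2a2 with the library labelled FGF21 alone, 0.020 for Mul1, -0.025 for Usp8, 0.010 for Fkbp8, 0.015 for Sqstm1, -0.027 for Opa1 and 0.0069 for Csnk2b with strand column 4, 0.00030 for Fkbp8 and 0.0073 for Csnk2b without a filter, 0.054 for Dnm1l and -0.025 for Mief1 with strand column 3, 0.00010 for Csnk2b with DESeq2's size factors, 0.00015 for Csnk2b with the DESeq2 Wald test, 0.0035 for Csnk2b with at least 1 CPM in 3 libraries. Leaving out each library in turn moved it on both sides of 0, from -0.071 to 0.058 for Mul1, -0.029 to 0.14 for Usp8, -0.096 to 0.080 for Fkbp8, -0.056 to 0.024 for Bcl2l13, -0.078 to 0.0063 for Optn, -0.054 to 0.062 for Sqstm1, -0.020 to 0.095 for Nbr1, -0.087 to 0.12 for Opa1, -0.14 to 0.041 for Dnm1l, -0.020 to 0.19 for Mff, -0.0052 to 0.084 for Mief1, -0.14 to 0.026 for Mief2, -0.030 to 0.047 for Csnk2a1, -0.069 to 0.030 for Csnk2a2 and -0.069 to 0.052 for Csnk2b. The causes were not tested.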

Other observations

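Genes of mitochondrial content had fold changes of both signs. Of 10 such genes, all were tested, 5 with a log2 fold change above 0 and 5 below. An unadjusted p under 0.05 by edgeR was found for 2, beside 8.92% of all genes tested, and neither passed the adjustment. Cox4i1, which encodes a subunit of cytochrome c oxidase often used as a mitochondrial marker, was at 428, 409.9 and 266 CPM in the TBHP group and 239, 342 and 249 CPM in the TBHP+FGF21 group. As for Tomm7, replicates 1 and 2 of the TBHP group and replicate 2 of the TBHP+FGF21 group were high, and the log2 fold change was -0.41 (adjusted p = 0.553). Hspd1, the mitochondrial chaperonin, was at 188, 232 and 207 CPM against 152, 204 and 164 CPM, a log2 fold change of -0.27.

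Of 9 transcription factors linked to mitophagy genes, 8 were tested, and 1 had an unadjusted p under 0.05 by edgeR, beside 8.92% of all genes tested. Nrf1, a regulator of nuclear genes for mitochondria, was at 25.1, 27.0 and 24.4 CPM in the TBHP group and 32.1, 31.5 and 29.3 CPM in the TBHP+FGF21 group. Its groups did not overlap, with a log2 fold change of 0.28 (adjusted p = 0.553 by edgeR, standard error 0.10). Ppargc1a had 1 count in all 6 libraries. Among 9 motor adaptors and motors of the Miro complex, 8 were tested, and Kif5c, a kinesin heavy chain, had an unadjusted p under 0.05, at 7.15, 7.98 and 8.06 CPM against 5.73, 7.32 and 4.53 CPM with overlapping groups (log2 fold change -0.40, adjusted p = 0.553).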
